A study of Mus musculus with 9 samples.

Results

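Toll-like receptors and their co-receptors were followed in liver macrophages of mice with and without a deletion of MAGL after acute toxic injury. The members were the 10 genes Tlr1, Tlr2, Tlr4, Tlr6, Tlr7, Tlr8, Tlr9, Tlr13, Cd14 and Ly96, found by symbol among the 59445 features of the deposited table, with 1 feature each. Male C57BL/6 mice had been given a single intraperitoneal dose of the liver toxin carbon tetrachloride (CCl4), labelled as 0.6 mg/kg, and 24 hours later F4/80+ CD11b+ macrophages were flow-sorted from liver non-parenchymal cells. MAGL is monoacylglycerol lipase, the enzyme encoded by Mgll that hydrolyses the endocannabinoid 2-arachidonoylglycerol. The groups were 4 MAGL fl/fl mice labelled as wild type (libraries S1, S3, S4, S5), all 11 weeks old, and 5 MAGL Mye-/- mice (S8 to S12), of which S9, S10 and S11 were 10 weeks old and S8 and S12 were 11 weeks old. Every mouse had received CCl4, no uninjured liver was analysed here, and the labels name neither the driver of the deletion nor its cell specificity beyond "Mye". They do not state pooling or litters, so p-values measure the spread between these libraries.

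Toll-like receptors recognise microbial molecules and some products of dying cells. At the cell surface, TLR2 pairs with TLR1 or TLR6 to bind lipopeptides, and TLR4 binds lipopolysaccharide through MD-2, the small protein encoded by Ly96, after CD14 has delivered the ligand. In endosomes, TLR7, TLR8 and TLR13 are RNA sensors and TLR9 detects DNA with unmethylated CpG. Most signal through the adaptor MyD88, and liver macrophages meet gut-derived ligands through the portal blood.

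The sequences of the receptors bear on which reads can be told apart. Tlr1 (chromosome 5, 64924680 to 64933561, mm10, minus strand) and Tlr6 (chromosome 5, 64952030 to 64960096, minus strand) are neighbours. Of the 2996 windows of 30 bases in the longest coding transcript of Tlr1 in GENCODE M21, 612 (20.4%) also occurred in that of Tlr6, where they made up 16.8% of windows. No other pair among the 10 members and Tlr3, Tlr5, Tlr11 and Tlr12 shared such a window. The longest shared stretch is 229 bases of coding sequence, at chr5:64925537-64925765 (GRCm38, minus strand) in Tlr1, and is shown 5′ to 3′ because reads inside it fit both genes equally:
Tlr1 and Tlr6 shared stretch: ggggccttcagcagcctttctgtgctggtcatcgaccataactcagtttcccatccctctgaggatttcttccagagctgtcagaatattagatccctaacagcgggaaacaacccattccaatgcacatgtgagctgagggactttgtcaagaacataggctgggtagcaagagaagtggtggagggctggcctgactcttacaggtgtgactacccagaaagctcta
How such reads were counted is not stated by the labels, so the split between Tlr1 and Tlr6 is uncertain.

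The reference table held promoters for 6 of the 10 members. They are RefSeq sequences (GRCm38.p6), cut here to the bases upstream of both the RefSeq start and the outermost GENCODE start. Shown 5′ to 3′ are Tlr2, the receptor with the highest level, and the 3 endosomal receptors found in the table. Capitals mark the PU box GAGGAA, the core bound by the myeloid transcription factor PU.1, the AP-1 motif TGANTCA, and the NF-kappaB consensus motif, each searched on both strands.
Tlr2 (chr3:83841768-83841858, minus strand): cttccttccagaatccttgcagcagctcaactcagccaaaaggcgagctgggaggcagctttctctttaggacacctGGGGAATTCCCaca
Tlr8 (chrX:167264330-167264579, minus strand): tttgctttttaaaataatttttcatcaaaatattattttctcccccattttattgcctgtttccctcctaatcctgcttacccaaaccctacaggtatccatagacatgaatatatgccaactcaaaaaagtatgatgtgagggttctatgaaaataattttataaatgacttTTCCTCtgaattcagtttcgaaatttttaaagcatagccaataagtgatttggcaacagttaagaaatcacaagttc
Tlr9 (chr9:106222348-106222597, plus strand): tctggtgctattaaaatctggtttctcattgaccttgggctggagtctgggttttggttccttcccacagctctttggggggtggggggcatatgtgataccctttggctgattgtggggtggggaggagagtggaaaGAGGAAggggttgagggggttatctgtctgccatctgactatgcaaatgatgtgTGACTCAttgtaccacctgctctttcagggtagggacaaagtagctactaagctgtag
Tlr13 (chrX:106143025-106143203, plus strand): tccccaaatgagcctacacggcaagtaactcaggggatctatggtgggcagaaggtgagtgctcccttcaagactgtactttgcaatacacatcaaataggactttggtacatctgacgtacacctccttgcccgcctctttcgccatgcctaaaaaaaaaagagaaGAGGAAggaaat
A PU box occurred once in Tlr8, Tlr9 and Tlr13 and once in the 245 bases of Tlr1, and was not found in the windows of Tlr2 and Tlr6. Of all 32851 promoters in the table, 23.3% held it in a window of 250 bases and 17.1% in one of 179 bases. The AP-1 motif occurred in Tlr9 alone of the 6, and in 6.75% of all promoters over 250 bases. The NF-kappaB motif (GGGRNNYYCC) occurred in Tlr2 alone, in the marked stretch near the start, and in 2.26% of all promoters over 91 bases. Its 3 matches there overlap, at positions 78 and 79 of the strand shown and at 79 of the other strand. A first search with a stricter form of this motif had found no match in any of the 6. The motifs were chosen after results had been seen, and a match describes letters only.

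Libraries held 33383559 to 46489349 reads. Genes of the sort were abundant: Itgam (CD11b) averaged 48739 ± 7072 normalized reads across fl/fl (SD, n = 4) and 49711 ± 4679 across Mye-/- (SD, n = 5), and Adgre1 (F4/80) averaged 5433 ± 658 and 6443 ± 1054. A normalized read is a read count divided by the authors' size factor of the library. Mgll stood at 18.6, 0, 106 and 22.8 normalized reads in the fl/fl libraries and at 30.4, 46.6, 5.93, 42.7 and 0 in the Mye-/- libraries, in the order above, so it was too low in both groups to check the labels. Across all 15288 tested features, limma on log2(normalized value + 1) called 3 at an adjusted p under 0.05 (0.0196%) and 1608 at an unadjusted p under 0.05 (10.5%).

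All 10 members were well detected, from 493 whole reads (Ly96, fl/fl S1) to 134704 (Cd14, fl/fl S1), and all 10 passed the filter on low values. Levels between genes were compared per kilobase of the longest coding transcript. Cd14 stood first, with a mean of 63831 ± 22602 normalized reads per kilobase across fl/fl (SD, n = 4) and 55706 ± 9025 across Mye-/- (SD, n = 5). Tlr2 was the receptor with the highest level, 12232 ± 1930 and 13136 ± 1034 per kilobase, 3.94-fold above the next. Over the 9 libraries the range of Cd14 did not overlap that of Tlr2, and the range of Tlr2 did not overlap that of any lower gene.

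**Figure D1:**
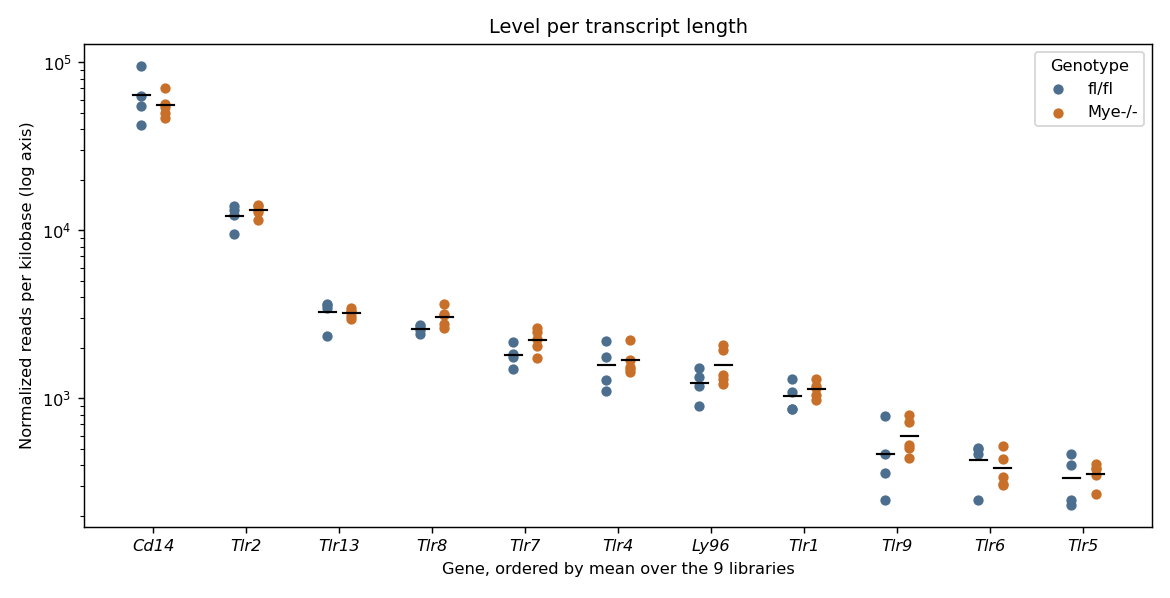
Level per transcript length of the 10 members and Tlr5. The y axis gives normalized reads per kilobase on a log axis, points are libraries (4 fl/fl, 5 Mye-/-) and bars are group means. Cd14 and Tlr2 stand clear of the rest, and from Tlr13 to Tlr1 the range of each gene overlaps that of the next.

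Below Tlr2 came the endosomal RNA sensors. Tlr13 averaged 3259 ± 618 normalized reads per kilobase across fl/fl and 3212 ± 188 across Mye-/-, Tlr8 averaged 2601 ± 147 and 3066 ± 388, and Tlr7 averaged 1815 ± 276 and 2236 ± 352. The lipopolysaccharide receptor Tlr4 followed with 1586 ± 493 and 1679 ± 320 per kilobase, then its partner Ly96 with 1238 ± 261 and 1583 ± 399, and Tlr1 with 1029 ± 212 and 1132 ± 128. The DNA sensor Tlr9 (465 ± 231 and 600.0 ± 154) and the TLR2 partner Tlr6 (431 ± 122 and 383 ± 94.2) were lowest. From Tlr13 to Tlr1, and between Tlr9 and Tlr6, neighbours in this order overlapped in their ranges, whereas Tlr1 lay above Tlr9 in 9 of 9 libraries without overlap.

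Among receptors outside the member set, Tlr5, the flagellin receptor, was close to Tlr6, with 337 ± 116 and 357 ± 53.0 normalized reads per kilobase. Tlr3, which detects double-stranded RNA, was at 0 in fl/fl S1 and S3 and reached at most 53.1 per kilobase, and the profilin receptors Tlr11 and Tlr12 were each at 0 in 6 of 9 libraries. The order depends on the length used: with the union of all exons, the level of Ly96 over all libraries was 885 in place of 1430.0 per kilobase, below Tlr1. The deposited Tlr8 feature extends 1573 bases past the GENCODE gene, and with these added to its length Tlr8 was at 1961 per kilobase, below Tlr7 at 2040.

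As a share of the summed level per kilobase of the 12 Toll-like receptors measured, Tlr2 made up 51.4% ± 7.21 across fl/fl (SD, n = 4) and 50.8% ± 2.27 across Mye-/- (SD, n = 5). The endosomal receptors together made up 34.4% ± 5.88 and 35.4% ± 2.55. Their lowest share was 28.2% in fl/fl S3 and their highest 42.4% in fl/fl S4, so both extremes were control libraries, and the Mye-/- libraries lay between them at 32.2% to 38.4%. These shares are ratios within a library and do not depend on the size factors. They do depend on the lengths used. With the extra bases of its feature, Tlr8 was at 1961 in place of 2859 per kilobase over all libraries, which lowers the endosomal share.

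No member passed the test between the genotypes. With limma, 0 of 10 passed an adjusted p of 0.05 (0.0196% of all features) and 0 of 10 passed an unadjusted p of 0.05 (10.5% of all features). On the whole reads recovered from the values, 0 of 10 passed either level with edgeR (0.0131% of all features adjusted, 8.02% unadjusted) and 0 of 10 with DESeq2 (0.955% and 8.87%). The log2 fold change (Mye-/- minus fl/fl) was above 0 for 7 members and below 0 for 3, with a median of 0.13. Over all tested features 54.6% were above 0 with a median of 0.06, and among the 7198 features with a mean of at least 500 the share was 49.8% and the median -0.00. For 0 of 10 members did the groups separate without overlap, while 1.7% of all features were fully higher and 1.6% fully lower in Mye-/-. In bulk RNA of this kind, fewer cells of a type and less RNA per cell cannot be told apart.

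**Figure D2:**
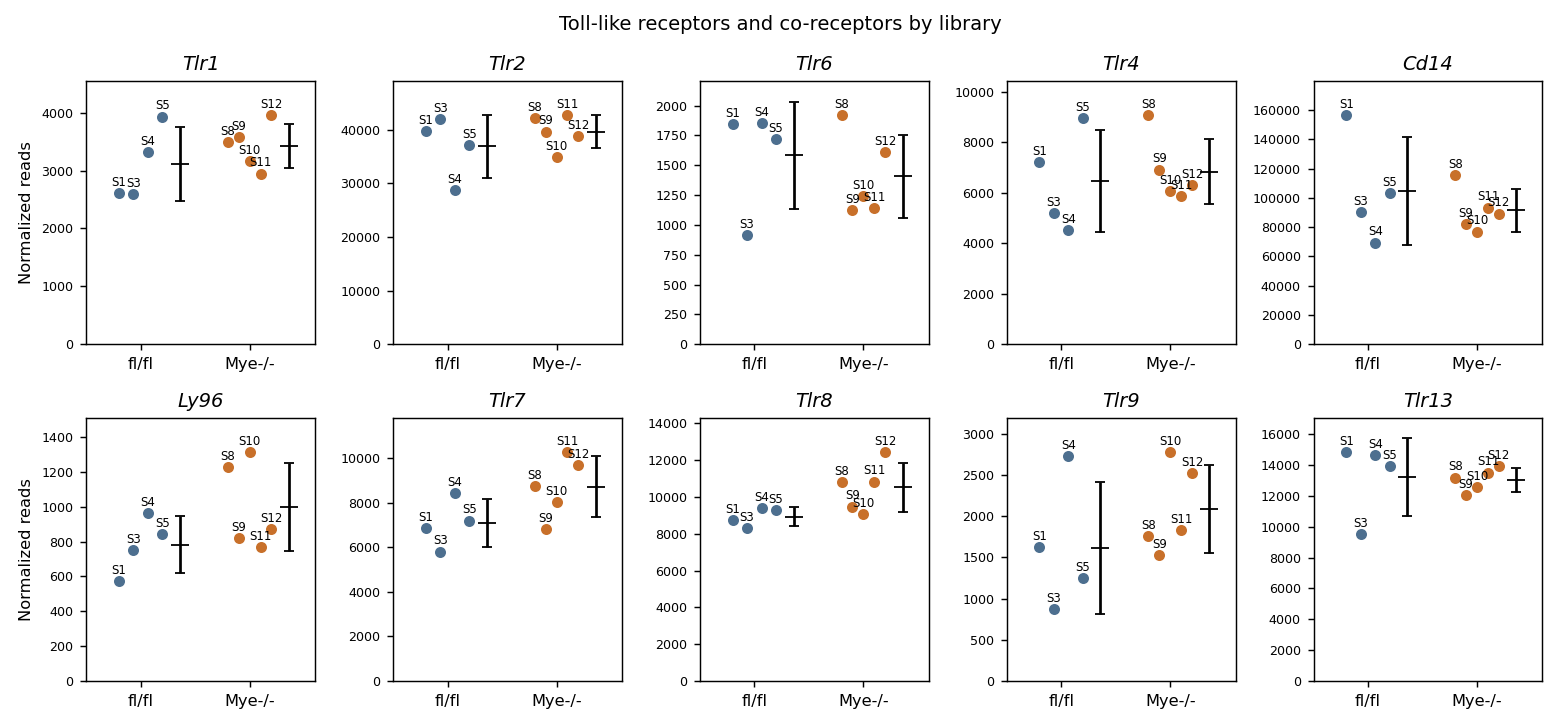
Normalized reads of the 10 members in each library. The y axis of each panel starts at 0, points are libraries named beside them, and black bars give the mean ± SD of each genotype (n = 4 fl/fl, n = 5 Mye-/-). The groups overlap in every panel, and fl/fl S3 is the lowest library for Tlr1, Tlr6, Tlr7, Tlr8, Tlr9 and Tlr13.

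Among the lipopeptide receptors, Tlr2 (chromosome 3, 83836271 to 83841767, minus strand) read 39716, 41999, 28681 and 37077 normalized reads in the fl/fl libraries, listed here and below in the order S1, S3, S4, S5, and 42087, 39602, 34831, 42648 and 38790 in the Mye-/- libraries S8 to S12. fl/fl S4 was lowest and the groups otherwise overlapped. The log2 fold change was 0.11 ± 0.14 (SE, 95% interval -0.18 to 0.41, limma adjusted p = 0.817), and -0.00 without fl/fl S4. Tlr1, a partner of TLR2, read 2610, 2596, 3318 and 3932 for fl/fl against 3486, 3573, 3164, 2948 and 3954 for Mye-/-. It was lowest in fl/fl S1 and S3, and its highest values came from both groups, in Mye-/- S12 and fl/fl S5 (log2 fold change 0.15 ± 0.16 SE, interval -0.18 to 0.49, limma adjusted p = 0.776). Without fl/fl S1 and S3 together the value was -0.08.

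Tlr6, the other partner, read 1845, 916, 1855 and 1723 normalized reads for fl/fl against 1919, 1124, 1244, 1142 and 1608 for Mye-/-. Only S3 was low among the fl/fl libraries, whereas the Mye-/- libraries S9, S10 and S11 lay below the other fl/fl libraries and below Mye-/- S8 and S12. These 3 are the 10-week-old mice, for which there was no control of that age. The log2 fold change was -0.15 ± 0.24 with all libraries (SE, interval -0.64 to 0.35, limma adjusted p = 0.860), 0.20 in 11-week-old mice alone and -0.39 without fl/fl S3. Within a library, Tlr1 per kilobase was 1.72 to 3.45 times Tlr6 across fl/fl and 2.21 to 3.86 times across Mye-/-, with overlapping ranges and subject to the uncertain split of shared reads.

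For the lipopolysaccharide complex, Tlr4 (chromosome 4, 66827551 to 66930284, plus strand) read 7204, 5203, 4509 and 8951 normalized reads for fl/fl against 9072, 6923, 6071, 5869 and 6298 for Mye-/-. The fl/fl libraries spanned nearly the whole range, with S4 lowest and S5 close to the highest value, that of Mye-/- S8. The log2 fold change was 0.12 ± 0.19 (SE, interval -0.27 to 0.50, limma adjusted p = 0.860), and -0.04 without fl/fl S4. Cd14 (chromosome 18, 36725067 to 36726815, minus strand), the ligand-delivering co-receptor, read 156333, 89981, 69457 and 103214 for fl/fl against 115395, 82302, 76881, 93241 and 89248 for Mye-/-. fl/fl S1 was the highest library and fl/fl S4 the lowest, with every Mye-/- value between them. Its log2 fold change was -0.15 ± 0.20 (SE, interval -0.58 to 0.28, limma adjusted p = 0.832), and 0.07 without fl/fl S1.

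Ly96 (chromosome 1, 16688432 to 16709605, plus strand) read 572, 751, 962 and 845 normalized reads for fl/fl against 1229, 822, 1315, 767 and 871 for Mye-/-. Mye-/- S8 and S10 exceeded all fl/fl libraries and the other 3 lay inside the fl/fl range (log2 fold change 0.34 ± 0.25 SE, interval -0.17 to 0.86, limma adjusted p = 0.650). Without fl/fl S1, its lowest library, the value was 0.20, and with S3 left out as well it was 0.11. Within a library, Tlr4 per kilobase was 0.73 to 1.95 times Ly96 across fl/fl and 0.72 to 1.31 times across Mye-/-. Cd14 exceeded Tlr4 by 28.6 to 53.9 times per kilobase across fl/fl and by 29.5 to 39.5 times across Mye-/-. The highest ratio of Cd14 to Tlr4 belonged to fl/fl S1 and the lowest to fl/fl S5.

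The endosomal receptors Tlr7 and Tlr8 held the smallest p-values of the members. Tlr7 (chromosome X, 167304926 to 167330571, minus strand), a sensor of single-stranded RNA, read 6873, 5806, 8417 and 7199 normalized reads for fl/fl against 8750, 6817, 8014, 10277 and 9705 for Mye-/-. Mye-/- S8, S11 and S12 exceeded every fl/fl library, while Mye-/- S9 lay below 3 of them. The log2 fold change was 0.30 ± 0.15 (SE, interval -0.01 to 0.61, limma adjusted p = 0.491). It was 0.39 without fl/fl S4 (limma adjusted p = 0.411) and 0.38 without Mye-/- S9 (limma adjusted p = 0.571). In these fits its unadjusted p was under 0.05, as for 10.5% and 7.81% of all features. In the other direction, it was 0.21 without fl/fl S3, 0.24 without Mye-/- S11 and 0.26 without Mye-/- S12. With both fl/fl S1 and S3 left out it was 0.15 (limma adjusted p = 0.818).

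Tlr8, its neighbour on the X chromosome (167241123 to 167264329, minus strand), read 8733, 8303, 9393 and 9268 normalized reads for fl/fl against 10794, 9477, 9052, 10837 and 12440 for Mye-/-. The fl/fl libraries were tight, with a coefficient of variation of 5.64%, and 4 of 5 Mye-/- libraries lay above all of them, S10 being the exception. The log2 fold change was 0.23 ± 0.13 (SE, interval -0.04 to 0.50, limma adjusted p = 0.545). It was 0.38 with age as a covariate (limma adjusted p = 0.938) and 0.28 without Mye-/- S10 (limma adjusted p = 0.547). In these fits its unadjusted p was under 0.05, as for 4.71% and 9.13% of all features. The value was 0.17 without Mye-/- S12 and 0.20 without fl/fl S3, and with both fl/fl S1 and S3 left out it was 0.16 (limma adjusted p = 0.767).

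Tlr9 (chromosome 9, 106222598 to 106226876, plus strand) was the most variable member within both groups, at 1622, 868, 2730 and 1250 normalized reads for fl/fl against 1763, 1533, 2781, 1831 and 2525 for Mye-/-. fl/fl S4 was nearly as high as the highest library, Mye-/- S10, while fl/fl S3 was the lowest. Its log2 fold change had the highest value among the members, 0.46 ± 0.27 (SE, interval -0.10 to 1.02, limma adjusted p = 0.561). It was 0.20 without fl/fl S3, 0.14 with both fl/fl S1 and S3 left out, and 0.75 without fl/fl S4 (limma adjusted p = 0.318). In the fit without fl/fl S4 its unadjusted p was under 0.05, as for 10.5% of all features.

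Tlr13 (chromosome X, 106143273 to 106160493, plus strand), the sensor of bacterial ribosomal RNA, read 14838, 9516, 14646 and 13931 normalized reads for fl/fl against 13185, 12022, 12545, 13509 and 13938 for Mye-/-. fl/fl S1 and S4 lay above all Mye-/- libraries and fl/fl S3 below all of them, and the log2 fold change was -0.00 ± 0.14 (SE, interval -0.30 to 0.30, limma adjusted p = 0.999). Without fl/fl S3 it was -0.15. Within a library Tlr8 per kilobase was 1.45 ± 0.15 times Tlr7 across fl/fl and 1.38 ± 0.15 times across Mye-/-, and Tlr13 was 1.25 ± 0.20 and 1.06 ± 0.08 times Tlr8 (SD, n = 4 and 5). Both ratios overlapped between the groups, and both depend on the length used for Tlr8. With the 1573 extra bases of its feature added, Tlr8 stood at 1961 per kilobase over all libraries, below Tlr7 at 2040.

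**Figure D3:**
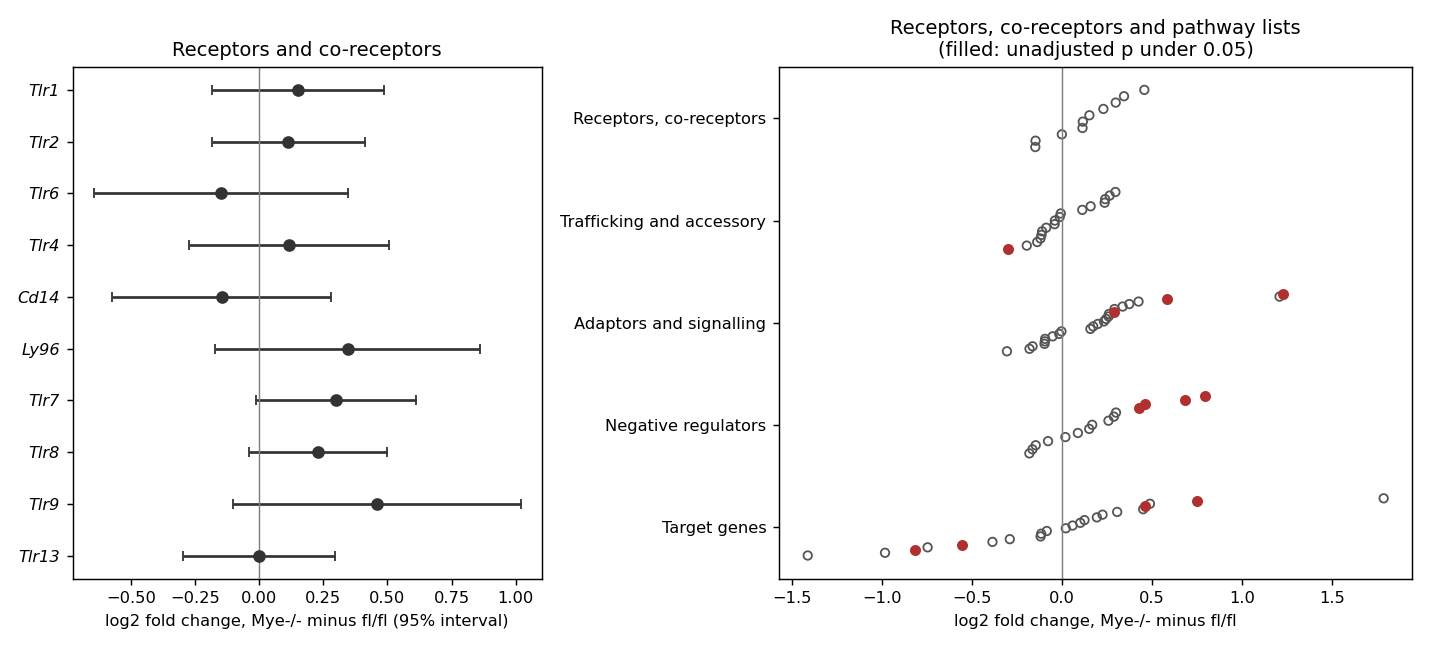
Left, log2 fold change (Mye-/- minus fl/fl) of the 10 members with 95% intervals from limma. Right, log2 fold changes of the members and of the tested genes of 4 pathway lists, 1 point per gene, filled red where the unadjusted limma p is under 0.05. Every member interval includes 0, and the filled points all lie in the pathway lists.

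Genes around the receptors were read from 5 lists: other Toll-like receptors, trafficking and accessory proteins, adaptors and signalling, negative regulators, and target genes. Of 80 tested genes, 0 passed an adjusted p of 0.05 with limma, and 12 passed an unadjusted p of 0.05, 9 higher and 3 lower in Mye-/-, against 6.38% and 4.13% of all features. edgeR called 0 of the 80 at an adjusted p under 0.05 (0.0131% of all features) and 11 unadjusted (8.02%). DESeq2 called Trafd1, Atf3, Il1b and Lcn2 adjusted (0.955% of all features) and 12 unadjusted (8.87%). Without overlap of the groups, 3 of the 80 were fully higher and 3 fully lower in Mye-/-, against 1.7% and 1.6% of all features. Of the other Toll-like receptors, 2 of 4 were tested and both had a log2 fold change above 0, namely Tlr5 (0.13 ± 0.23 SE) and Tlr3, whose value rests on 2 fl/fl libraries at 0. Values below without an adjusted p under 0.05 are measurements only.

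Among the 17 trafficking and accessory genes, 6 were higher and 11 lower in Mye-/- with a median log2 fold change of -0.04. The share of all tested features that were higher was 54.6%. In this list 1 gene was lower at an unadjusted limma p under 0.05, against 4.13% of all features. This was Hsp90b1, the chaperone gp96 that folds most Toll-like receptors, with 63885 ± 4659 normalized reads across fl/fl (SD, n = 4) and 51959 ± 3155 across Mye-/- (SD, n = 5). All 5 Mye-/- values lay below all 4 fl/fl values, as for 1.6% of all features (log2 fold change -0.30 ± 0.13 SE, limma adjusted p = 0.452). Unc93b1, the chaperone that carries endosomal receptors to their compartment, averaged 28747 ± 7475 and 27445 ± 2784, with 39957 in fl/fl S1. Slc15a4, an endolysosomal transporter needed for TLR7 and TLR9 signalling, averaged 4669 ± 505 and 5566 ± 1108. Lgmn, an endosomal protease, averaged 11919.7 ± 3142 and 14068 ± 2203, and Tmed7, a trafficking protein of TLR4, averaged 8959 ± 916 and 7847 ± 1065. Lbp, the serum protein that hands lipopolysaccharide to CD14, was low at 426 ± 220.2 and 353 ± 87.5.

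Of the 24 adaptor and signalling genes, 15 were higher and 9 lower (median 0.22), against 54.6% higher over all tested features. At an unadjusted limma p under 0.05, 3 were higher, against 6.38% of all features. Irf7, an interferon regulatory factor downstream of TLR7 and TLR9, averaged 7456 ± 1742 normalized reads across fl/fl and 11246 ± 3022 across Mye-/- (log2 fold change 0.58 ± 0.19 SE, limma adjusted p = 0.295). Ikbkb, a kinase upstream of NF-kappaB, averaged 12481 ± 908 and 15212 ± 909. Its 5 Mye-/- values lay above all fl/fl values, as for 1.7% of all features. Traf6, the ubiquitin ligase after MyD88, read 95.2, 571, 80.3 and 571 for fl/fl and 385 to 666 for Mye-/-, so fl/fl S1 and S4 stood below all others. Tirap, the bridging adaptor of TLR2 and TLR4, averaged 243 ± 186 and 404 ± 132. Myd88 averaged 4505 ± 268 and 3975 ± 202 (log2 fold change -0.18 ± 0.13 SE, limma adjusted p = 0.647). Its 5 Mye-/- values lay below all fl/fl values, as for 1.6% of all features.

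Of the 15 negative regulators, 11 were higher and 4 lower (median 0.17), against 54.6% higher over all tested features. At an unadjusted limma p under 0.05, 4 were higher, against 6.38% of all features. Zc3h12a, which encodes the RNase regnase-1 that degrades cytokine mRNAs, averaged 1324 ± 322 normalized reads across fl/fl and 2281 ± 424 across Mye-/- (log2 fold change 0.80 ± 0.20 SE, limma adjusted p = 0.218, DESeq2 adjusted p = 0.0565). Trafd1, a feedback inhibitor of Toll-like receptor signalling, averaged 8173 ± 644 and 10984 ± 1007 (log2 fold change 0.43 ± 0.12 SE, limma adjusted p = 0.256, DESeq2 adjusted p = 0.0306). In both, all Mye-/- values exceeded all fl/fl values, as for 1.7% of all features. Atf3, a transcription factor that restrains cytokine genes, averaged 58893 ± 9605 and 80441 ± 7775 (limma adjusted p = 0.318, DESeq2 adjusted p = 0.0325), and Nfkbie, an inhibitor of NF-kappaB, 1458 ± 306 and 2422 ± 756. Nfkbie was highest in the 10-week-old Mye-/- mice S9, S10 and S11 (3216, 2779 and 2511), and Mye-/- S12, at 1188, lay inside the fl/fl range. Its log2 fold change was 0.24 to 0.92 over the 20 alternatives of the processing.

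Target genes of Toll-like receptor signalling did not share a direction: of 22 tested, 12 were higher and 10 lower (median 0.04). Among all tested features 54.6% were higher. Il1b, the cytokine interleukin-1 beta, averaged 19381 ± 5378 normalized reads across fl/fl and 32235 ± 6994 across Mye-/- (log2 fold change 0.75 ± 0.20 SE, limma adjusted p = 0.218, DESeq2 adjusted p = 0.0273). Lcn2, the iron-sequestering protein lipocalin 2, averaged 11243 ± 1974 and 6357 ± 900.2 (log2 fold change -0.82 ± 0.15 SE, limma adjusted p = 0.0608, DESeq2 adjusted p = 0.000153). In Lcn2, 5 of 5 Mye-/- values lay below every fl/fl value, as for 1.6% of all features. Ptgs2, which encodes cyclooxygenase 2, averaged 13887 ± 5241 and 18553 ± 3936, and Saa3, an acute-phase protein, 4917 ± 1727 and 3357 ± 1242. Tnf read 2882, 20324, 2627 and 3292 for fl/fl and 3957 to 5005 for Mye-/-, and its log2 fold change turned from -0.08 ± 0.40 (SE) to 0.62 without fl/fl S3 (limma adjusted p = 0.201). Il6 averaged 2052 ± 1790 and 1982 ± 1141.

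**Figure D4:**
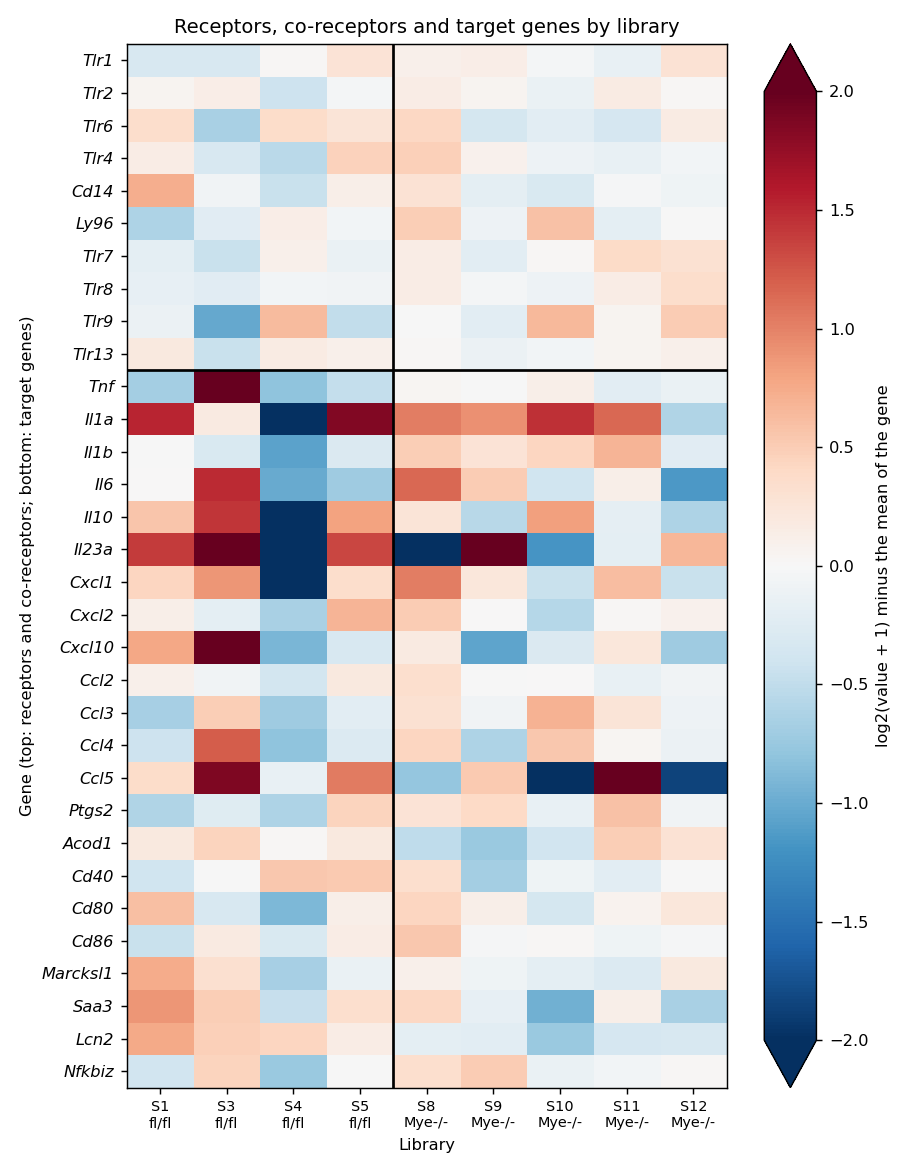
Log2(normalized value + 1) minus the mean of the gene over the 9 libraries, for the 10 members (above the line) and the 22 tested target genes (below), by library. The color scale ends at -2 and 2. The column of fl/fl S3 is blue for Tlr6, Tlr7, Tlr9 and Tlr13 and red for Tnf, Cxcl10, Il6 and Ccl4.

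Markers of other cells that carry these receptors were summed beside the members. Those of plasmacytoid dendritic cells, which are rich in TLR7 and TLR9, were at or near 0: Siglech and Cox6a2 were at 0 in all 9 libraries, and the 5 markers summed to 0 to 53.4 normalized reads across fl/fl and 0 to 42.7 across Mye-/-. Of 8 B cell markers, Pax5, Cr2 and Blk were at 0 in all libraries and the sum was 137 to 176 and 71.6 to 183. The 12 neutrophil markers summed to 43399.5 to 59015 across fl/fl and 26710 to 48171 across Mye-/-, carried by S100a8, Cd177, Mmp8, S100a9 and Csf3r, with Ly6g at 0 in 8 of 9 libraries. Without S100a8 the other 11 summed to 19908 to 25514 and 16249.6 to 22022. The genes that carried the sum did not share a direction. S100a8 averaged 30191 across fl/fl and 17455 across Mye-/-, S100a9 5906 and 2841, and Cd177 7409 and 6572. Mmp8 averaged 5122 and 5170, and Csf3r was higher in Mye-/- at 3239 and 4390.

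The 8 Kupffer cell markers (resident macrophages) summed to 1125 to 1736 normalized reads across fl/fl and 1724 to 3834 across Mye-/-, highest in Mye-/- S10. Nr1h3, which is not particular to Kupffer cells, carried this sum at 925 to 1571 and 1159 to 2596. The other 7 summed to 63.3 to 615 across fl/fl and 205 to 1992 across Mye-/-, with S8, S9 and S12 inside the fl/fl range and S10 and S11 above it, and Timd4 was at 0 in 8 of 9 libraries. Ly96 and Tlr9 were also highest in Mye-/- S10, and without that library their log2 fold changes were 0.24 and 0.34. The 7 markers of monocyte-derived macrophages summed to 474898 to 727360 normalized reads across fl/fl and 507009 to 819396 across Mye-/-, with Chil3 highest. Without Chil3 the other 6 summed to 269073 to 367838 and 284988 to 412573. Of these 7 markers, 2 had a log2 fold change above 0 and 5 below, among them Ly6c2 (12302 ± 1480 and 9994 ± 969). Platelet and erythroid markers summed to 5908 to 35204 and 2654 to 6901, carried by the globin genes Hba-a1, Hba-a2, Hbb-bs and Hbb-bt. The platelet genes Pf4, Ppbp and Itga2b averaged 239, 28.8 and 39.6 across fl/fl and 236, 40.1 and 53.7 across Mye-/-. Conventional dendritic cell markers summed to 219 to 524 and 385 to 1212. Flt3 alone was at 132 to 517 and 314 to 1071, and the other 5 summed to 7.16 to 233 and 70.7 to 318. Of the 9 hepatocyte markers, Trf alone was at 12599.9 to 26014 and 13384 to 20777, and the other 8 summed to 671 to 1899 across fl/fl and 1256 to 10676 across Mye-/-. The high value was that of Mye-/- S10, where Alb (albumin) was at 7085, and the other Mye-/- libraries reached at most 1924. Lyz2, a gene of monocytes and macrophages whose feature also carries another symbol, averaged 308919 ± 83367 and 169027 ± 24893 (limma adjusted p = 0.218, DESeq2 adjusted p = 8.13e-05). Of the 7 macrophage markers, 6 had a log2 fold change above 0 and Lyz2 alone was below. The other 6 summed to 106197 to 137614 across fl/fl and 119506 to 146297 across Mye-/-. The part of these cells in the values of the members was not tested.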

How the data were processed

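RNA sequencing of 9 libraries (4 MAGL fl/fl, 5 MAGL Mye-/-) was analysed from 1 table. Its values are a normalized signal, gene read counts that the authors divided by 1 DESeq size factor per library, per the file headers, with no log and no length correction. Per the submitters' processing notes, STAR 2.4.0, SAMtools, Picard, FastQC and mm10 were used, and the headers name FAST DB gene models. Counter, strand setting and duplicate handling: not given in the sources used here. Dividing each column by its smallest nonzero value gave whole reads for 100% of values within 0.01 reads.

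Features at 10 or more in at least 4 libraries (15288) were tested on log2(value + 1). On this scale, fold changes of low genes with libraries at or near 0 can exceed those on whole reads. For Tlr3 the log2 fold change was 2.83 with limma and 0.44 with edgeR. limma 3.58.1 in R 4.3.3 (trend, two-sided, Benjamini-Hochberg over all 15288) was the main test. Alternatives were edgeR 4.0.16 (quasi-likelihood) and DESeq2 1.42.0 on whole reads, pseudocounts of 0.5 and 8, no filter or a minimum of 100, TMM scaling, no trend, age, and leaving out libraries. The fit was tested on simulated data with fold changes larger than those estimated for the members. That test therefore does not show whether differences of the members' size would be found.

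The members and lists were chosen with earlier results of these data known. Named genes are the 10 members, the 4 genes of smallest p in each pathway list, Myd88, Unc93b1, Hsp90b1, Lbp, Tlr3, Tlr5, Tnf, Il1b, Il6, Adgre1, Itgam and Lyz2, with Tlr11, Tlr12, Mgll, Ifnb1, Cxcl10, Ccl4 and markers given as values only. Lengths came from GENCODE M21 (GRCm38, the assembly of mm10).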

Additional observations from a re-analysis of the deposited data

Results flagged for a closer look

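Of 72 groups (36 named genes in each genotype), 4 had a library far from the rest of its group by Dixon's criterion, a number that chance gives at about 1 in 20 groups. All were fl/fl libraries. Tlr6 was at 916 normalized reads in fl/fl S3, against 1723 to 1855 in the other 3. Tlr13 was at 9516 in fl/fl S3, against 13931 to 14838. Tnf was at 20324 in fl/fl S3, against 2627 to 3292. Unc93b1 was at 39957 in fl/fl S1, against 24840 to 25202.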

How the results depend on the processing

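No member passed an adjusted p of 0.05 under any of the 20 alternatives. The count of all features called, 3 in the main analysis, was 17 with a pseudocount of 8, 6 with TMM scaling, 146 with DESeq2, 21 without an intensity trend, 0 with a term for age, 1 in 11-week-old mice, 9 without fl/fl S1 and S3 (chosen after seeing the data), and 0 to 20 when each library was left out (20 without fl/fl S5, 5 without fl/fl S3, 2 without fl/fl S4 or Mye-/- S12, 1 without Mye-/- S11, 0 without Mye-/- S8 or S10). Of the pathway genes, 6 to 16 had an unadjusted p under 0.05 over the alternatives, against 12. Members past an unadjusted p of 0.05 numbered 1 with a term for age (Tlr8, log2 fold change 0.38, with 4.71% of all features) and 0 to 2 without 1 library (Tlr7 and Tlr9 without fl/fl S4, with 10.5% of all features, Tlr7 without Mye-/- S9, with 7.81%, and Tlr8 without Mye-/- S10, with 9.13%). Log2 fold changes of Tlr7, Tlr8, Tlr9 and Ly96 kept their direction in all 20, over 0.15 to 0.39, 0.16 to 0.38, 0.14 to 0.75 and 0.11 to 0.45. With a term for age, or in 11-week-old mice only, those of Tlr6 (0.20), Tlr13 (0.057) and Cd14 (0.018) turned, as did Tlr13 with TMM scaling (0.015). Without fl/fl S1 and S3 those of Tlr1 (-0.084), Cd14 (0.10), Tlr3 (-0.60), Tlr5 (-0.30), Unc93b1 (0.13), Lbp (0.55), Tnf (0.61) and Itgam (-0.15) turned. Il6 was at -0.034 with edgeR and -0.051 with DESeq2. Leaving out each library gave -0.0020 to 0.18 for Tlr2, -0.040 to 0.29 for Tlr4, -0.15 to 0.062 for Tlr13, -0.32 to 0.067 for Cd14, -0.026 to 0.31 for Tlr5, -0.10 to 0.13 for Unc93b1, -0.45 to 0.12 for Lbp, -0.37 to 0.62 for Tnf, -0.22 to 0.62 for Il6 and -0.038 to 0.10 for Itgam. The cause of these shifts was not tested. No paired analysis was possible because the groups share no replicate numbers. The 95% intervals leave room for differences up to 2.03-fold for Tlr9 and 1.33-fold for Tlr2.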

Other observations

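The lowest of the 9 libraries was an fl/fl library for all 10 members: fl/fl S3 for 6 of them (Tlr1, Tlr6, Tlr7, Tlr8, Tlr9 and Tlr13), fl/fl S4 for 3 (Tlr2, Tlr4 and Cd14) and fl/fl S1 for Ly96. The highest was a Mye-/- library for 8 of 10, 2 each in S8, S10, S11 and S12, and fl/fl S1 for Tlr13 and Cd14. For neither the members nor the target genes below was the share over all tested features counted. These counts therefore have no background beside them and describe the listed genes only.

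The same 2 control libraries stood at opposite ends for the target genes. fl/fl S3 was the highest library for 6 of 22 tested target genes, among them Tnf at 20324 normalized reads, Cxcl10, an interferon-induced chemokine, at 11125 against 1231 to 4360 in the other 8, and Ccl4, another chemokine, at 13971. Ifnb1, which encodes interferon beta, was at 784 in fl/fl S3 and at 0 in the other 8 libraries. fl/fl S4 alone was the lowest library for 13 of 22, and for Il23a it tied with Mye-/- S8 at 0. The 13 include Il1b at 11955, Tnf at 2627 and Ccl4 at 3480. fl/fl S3 also held the highest mitochondrial share of reads, at 9.45%, and fl/fl S4 the fewest detected features, at 14240; their part in these values was not tested.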
